A study of Oryza longistaminata with 12 samples.

Results

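The genes described here are 46 of the 29335 gene models counted in roots of the wild rice *Oryza longistaminata*. Their transcripts were higher when the root itself had no ammonium. By the rule below, their group means lay close whether or not the ramet joined to it had ammonium. CPM, the counts scaled to a library of 1000000 counted reads, measure the level of a gene. A gene was taken when its lowest CPM in the 6 deprived libraries was at least 5 and at least 1.5 times its highest CPM in the 6 supplied libraries, and when the mean of the split group and the mean of the uniform group were close, the larger at most 15% above the smaller, in both the supplied and the deprived roots. The gene model OL02T003003 was left out of the members beforehand. The members were thus chosen by the CPM of all 12 libraries, so differences between groups are given for them as descriptions, and any count of members past a test's threshold restates the rule.

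Roots adjust their gene expression to nitrogen through local cues from the medium and through signals that travel from other parts of the plant, and split-root work in Arabidopsis has separated these layers. Ammonium taken up by rice roots is fixed into glutamine by glutamine synthetase and passed on through glutamate synthase. In clonal plants a rhizome joins ramets that can meet different supplies.

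Ramet pairs of *O. longistaminata* IRGC10404, young plants joined by a rhizome, were grown on 1 mM NH4Cl and then kept for 24 h with the roots of each ramet in a separate pot. In −N split roots the own pot held 0 mM NH4Cl and the partner's 2.5 mM, in −N roots both held 0 mM, in +N split roots the own pot held 2.5 mM and the partner's 0 mM, and in +N roots both held 2.5 mM. Each group had 3 libraries of root mRNA, with 39071838 to 56252511 counted reads per library, and all came from this 1 accession. The treatment text of −N replicate 1 describes the split treatment while its title and source name give −N, and the title was followed. The labels do not say which −N split and +N split libraries came from the same pair, or that replicates came from separate pairs, so the errors measure the spread between these libraries. The study's methods state for its graphs that ramet pairs were prepared independently, without naming these libraries. In whole roots, fewer cells of a type and less RNA per cell cannot be told apart. CPM is not corrected for gene length, so levels are compared between groups within a gene and not between genes. Summed over 34 genes described as chlorophyll, photosystem, Rubisco or thylakoid proteins, the CPM was 796 to 2481 in −N split, 1681 to 2455 in −N, 1645 to 3664 in +N split and 2649 to 3326 in +N roots. All 34 come from tables of genes called lower in deprived roots on these same libraries, so the order of these sums is not independent of them.

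The rule removed genes in steps. In 2917 gene models every deprived library lay above every supplied library, which held for 11.6% of the 25005 genes that passed edgeR's filter on low counts and were tested. In 177 the separation, the lowest deprived CPM over the highest supplied CPM, was at least 1.5. The minimum of 5 CPM left 142 genes, and 46 of them lay within both limits on the split over uniform ratio. Of the other 96, 28 left the limits in supplied roots only, 42 in deprived roots only and 26 in both. The 142, the 96 and the 28 still include OL02T003003. In deprived roots 49 genes had a −N split mean above the upper limit and 19 a mean below the lower limit. In supplied roots 15 had a +N split mean above the upper limit and 39 a mean below the lower limit. The median ratio of all genes in unscaled CPM was 0.042 on the log2 scale for −N split over −N and −0.077 for +N split over +N, and these counts include that shift. The same rule with supplied and deprived roots exchanged found 50 genes. Without −N replicate 1, whose labels conflict, 63 genes met the rule, which hold 41 of the 46.

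**Figure D1:**
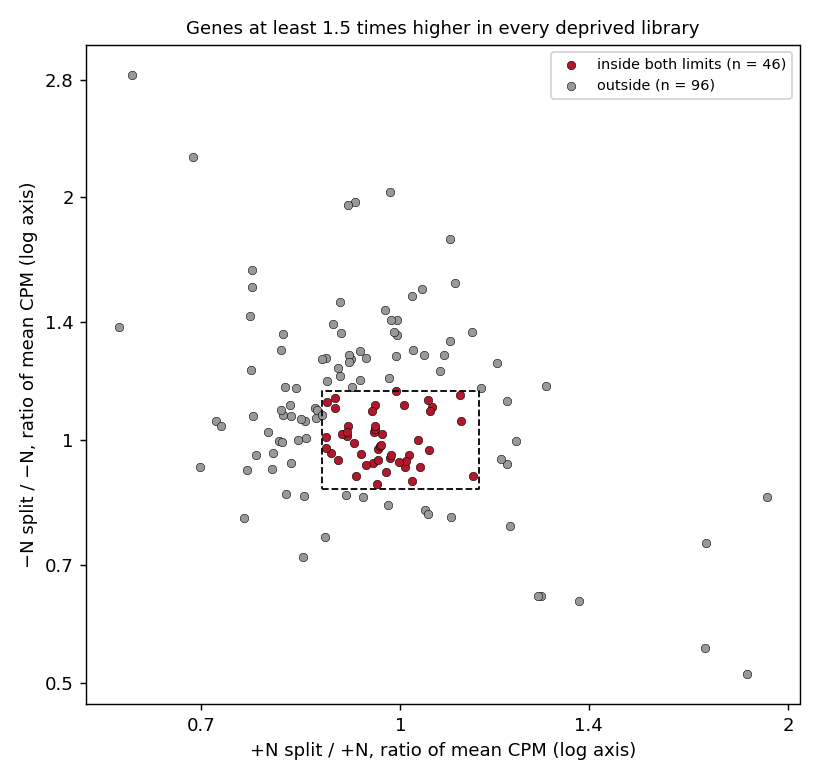
Ratio of mean CPM between split and uniform pairs in supplied roots (x axis, +N split over +N) and in deprived roots (y axis, −N split over −N), both on log axes, for the 142 genes at least 1.5 times higher in every deprived library and at 5 CPM or more. The dashed box holds the limits of 15% on each ratio. The 46 genes inside it (red) are those described, and the 96 grey points, OL02T003003 among them, lie outside.

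Among the 46 genes the mean over the deprived libraries was 1.67 to 4.85 times the mean over the supplied libraries, with a median of 2.45. It was at least 2 times in 41 genes, at least 3 times in 11 and at least 4 times in 4. The mean CPM of the deprived roots was 6.50 to 866 with a median of 32, and it was at least 10 CPM in 41 genes. The smallest count behind any member in any library was 78 reads. All 46 genes passed the filter on low counts.

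The 10 genes with the largest separation come first. OL04T002843, described as an amidohydrolase family gene, a family of hydrolases that cut carbon-nitrogen and related bonds, had 96.4, 97.6 and 97.8 CPM under −N split and 91.2, 98.8 and 98.1 CPM under −N, against 19.8, 19.3 and 17.9 CPM under +N split and 20.4, 23.8 and 18.4 CPM under +N. The supplied and deprived libraries were far apart, with a separation of 3.84, and within each group they lay close together. The log2 fold change was 2.15 (standard error 0.093) in −N split compared to +N roots, where the partner was supplied, and 2.24 (standard error 0.093) in −N compared to +N split roots, where the partner was deprived. OL04T002497, described as a hypothetical protein, had 52, 59.9 and 40.8 CPM under −N split and 56.6, 56.4 and 47.8 CPM under −N, against 12.3, 12 and 9.41 CPM under +N split and 13.7, 11.4 and 9.19 CPM under +N. Its separation was 2.97, and −N split replicate 3 was the lowest deprived library.

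OL03T003104, described as the auxin-responsive protein IAA13, belongs to the Aux/IAA family of repressors that are degraded when auxin is perceived. It had 113, 95.2 and 90.6 CPM under −N split and 85.3, 104 and 109 CPM under −N, against 43, 36.7 and 32.8 CPM under +N split and 41.9, 37.9 and 29.2 CPM under +N. The means were 99.6 ± 11.8 CPM under −N split and 99.5 ± 12.4 CPM under −N (SD, n = 3 each), and no supplied library was above 43 CPM. OL05T001849, which carries a leucine-rich repeat N-terminal domain of the kind found in plant receptor kinases and receptor-like proteins, had 34, 31.8 and 35.4 CPM under −N split and 28.5, 32.6 and 34.6 CPM under −N, against 13.1, 13.8 and 12.1 CPM under +N split and 14.1, 8.78 and 12.2 CPM under +N. The log2 fold change of OL05T001849 was 1.46 (standard error 0.14) with a supplied partner and 1.19 (standard error 0.14) with a deprived partner.

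The other 6 of these 10 genes, like OL04T002497, have no informative description in the tables read. OL01T001204 had 648, 726 and 543 CPM under −N split and 566, 553 and 615 CPM under −N, against 229, 178 and 153 CPM under +N split and 262, 151 and 172 CPM under +N. In its supplied groups replicate 1 was the highest library, and its lowest deprived value was 543 CPM. OL03T003875 had 14.3, 8.99 and 13.5 CPM under −N split and 9.57, 16.5 and 14.8 CPM under −N, against 3.8, 3.06 and 3.06 CPM under +N split and 4.01, 2.02 and 2.69 CPM under +N. This gene had the widest spread within the deprived groups of the 10, with coefficients of variation of 23.5% in −N split and 26.5% in −N roots. OL09T001196, OL09T000566, OL12T000759 and unmappedContigsT001026 had separations of 2.14, 2.02, 1.98 and 1.96. Their deprived means were 3.02, 2.78, 2.8 and 2.75 times their supplied means.

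**Figure D2:**
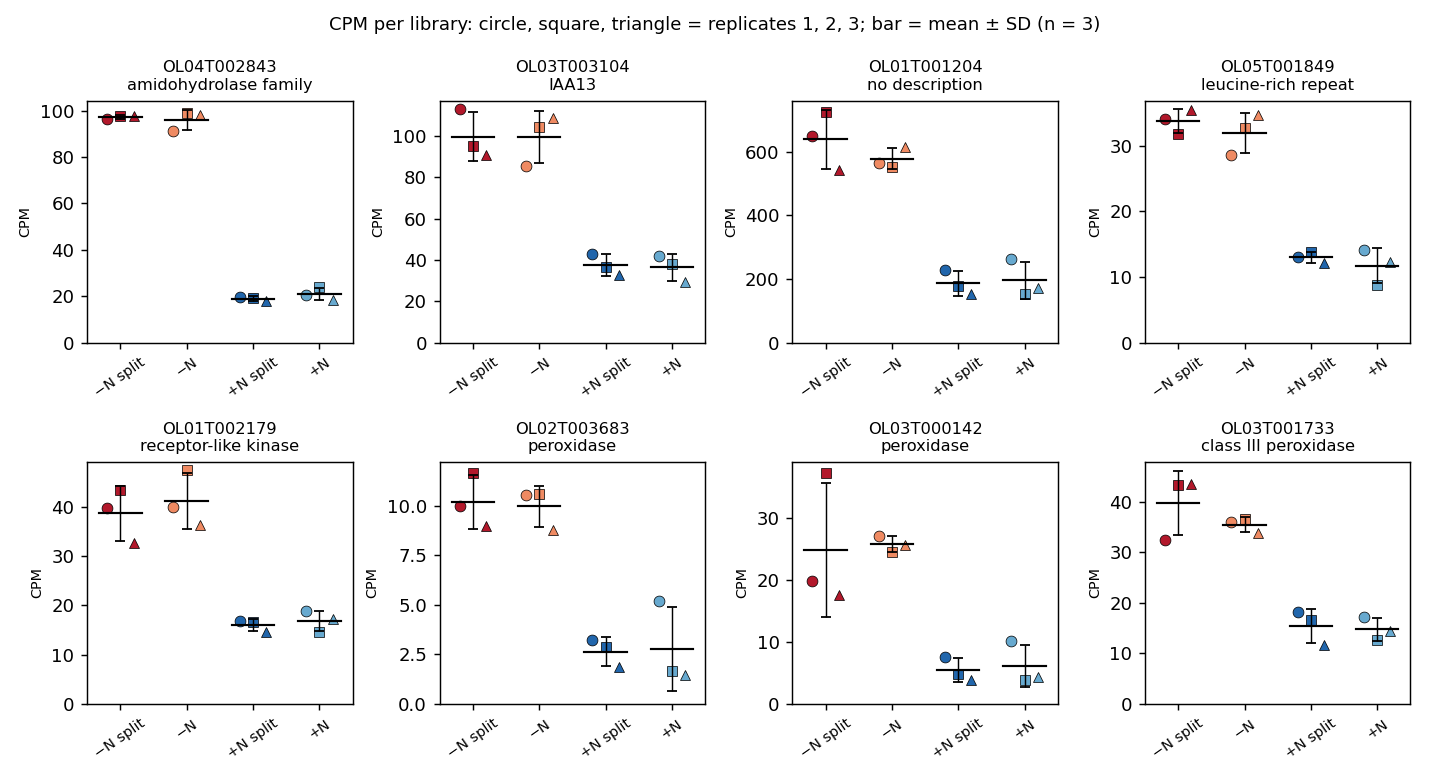
CPM (y axis, from 0) of 8 of the genes in the 4 groups (x axis), with a point for each library, marked by replicate number, and a bar for the mean with its SD (n = 3). In OL04T002843 the deprived libraries lie between 91.2 and 98.8 CPM and the supplied libraries between 17.9 and 23.8 CPM, while in the peroxidase genes OL02T003683 and OL03T000142 the circle of +N replicate 1 stands above the other supplied libraries.

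Of the 46 genes, 23 have a description in the tables read, which for genes higher in −N than in +N roots end on chromosome 5, and for 20 of them it is informative. Their roles are given from that description and from the family's known function. All 23 members on chromosomes 1 to 5 are among these, and the 23 on later chromosomes and on unmapped contigs are not described here. Of the 23 members with a description, the description lists for cell wall, kinase and nitrogen recycling genes held 3, 2 and 1. Those for nitrogen assimilation, nitrogen transport, transcription factors, cytoskeleton and cell division, redox and green tissue genes held 0. Of all 3992 genes with a description, the cell wall, kinase and nitrogen recycling lists held 97, 149 and 59. Of these, 52, 48 and 17 came from the table of genes higher in −N than in +N roots. The 3992 also include genes called lower in deprived roots, which cannot be members. Members without a description could not fall in any list. The 11 described genes outside these lists and outside the largest and smallest separations, and OL07T000076, are named here after their values were seen. The leucine zipper gene OL01T003084 is among them, since its description was not matched by the search for transcription factors.

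Peroxidase genes made up 3 of the described members. Class III peroxidases are secreted heme enzymes that use hydrogen peroxide to cross-link or loosen wall polymers. OL02T003683 had 9.96, 11.7 and 8.96 CPM under −N split and 10.5, 10.6 and 8.79 CPM under −N, against 3.22, 2.87 and 1.84 CPM under +N split and 5.2, 1.64 and 1.46 CPM under +N. +N replicate 1 was more than 3 times the other +N libraries, which gave a coefficient of variation of 76.2%. The rule itself keeps this library below every deprived one. OL03T000142 had 19.8, 37.3 and 17.5 CPM under −N split and 27.2, 24.6 and 25.6 CPM under −N, against 7.6, 4.77 and 3.87 CPM under +N split and 10.1, 3.91 and 4.39 CPM under +N. Here −N split replicate 2 stood above the other deprived libraries and +N replicate 1 above the other supplied ones. OL03T001733 had 32.4, 43.3 and 43.5 CPM under −N split and 35.9, 36.6 and 33.8 CPM under −N, against 18.2, 16.6 and 11.7 CPM under +N split and 17.1, 12.6 and 14.5 CPM under +N. Its groups were tighter, with coefficients of variation of 16.1%, 4.22%, 21.7% and 15.3% in −N split, −N, +N split and +N roots. The log2 fold change of the 3 peroxidase genes was 1.83, 1.96 and 1.36 with a supplied partner and 1.82, 2.15 and 1.1 with a deprived partner.

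A further 3 members, outside the cell wall and redox lists, are described as an arabinogalactan peptide or by a DOMON domain. OL05T000696, an arabinogalactan peptide, codes for a short cell surface proteoglycan and had 24.2, 23 and 15.5 CPM under −N split and 17.5, 26.4 and 18.2 CPM under −N, against 8.13, 6.52 and 4.2 CPM under +N split and 9.51, 6.56 and 5.47 CPM under +N. OL04T001535, with a DOMON domain, had 59.4, 68 and 60 CPM under −N split and 53.6, 76.3 and 65.9 CPM under −N, against 30.7, 25.9 and 20.8 CPM under +N split and 30.8, 22.9 and 22.6 CPM under +N. OL04T001545, with cytochrome b561 and DOMON domains, a pairing known from ascorbate-linked electron transport across membranes, had 34.1, 38.1 and 32.8 CPM under −N split and 31, 44.1 and 40 CPM under −N, against 17.8, 13.7 and 13 CPM under +N split and 19.1, 13.8 and 12.7 CPM under +N. The gene numbers of OL04T001535 and OL04T001545 differ by 10, and in both genes −N replicate 2 was the highest and −N replicate 1 the lowest deprived library. No members had gene numbers within 3 of each other, and 3 pairs had numbers within 20, the others being OL07T000060 with OL07T000076 and OL09T001182 with OL09T001196.

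The kinase list held 2 members, OL01T002179 and OL05T001011. Receptor-like kinases sit in the plasma membrane and pass on external or peptide signals by phosphorylation. OL01T002179, described as a receptor-like protein kinase, had 39.8, 43.4 and 32.6 CPM under −N split and 39.8, 47.4 and 36.2 CPM under −N, against 16.9, 16.6 and 14.7 CPM under +N split and 18.7, 14.6 and 17.2 CPM under +N. OL05T001011, described only by its kinase domain, had 14.8, 18.2 and 15.1 CPM under −N split and 15.6, 16.7 and 17.2 CPM under −N, against 8.4, 8.87 and 4.42 CPM under +N split and 8.13, 7.92 and 4.57 CPM under +N. In OL05T001011 the third replicate of each supplied group was the lowest. The leucine-rich repeat, C2 domain and resistance protein genes that follow are in none of the lists. OL03T001317, with a leucine-rich repeat N-terminal domain, had 40.7, 38.9 and 42.4 CPM under −N split and 34.9, 41.7 and 33.9 CPM under −N, against 20.3, 19.5 and 11.4 CPM under +N split and 21.6, 12.9 and 16.4 CPM under +N. OL02T001384, with a C2 domain, which in many proteins binds membranes in response to calcium, had 156, 141 and 132 CPM under −N split and 133, 141 and 137 CPM under −N, against 65.6, 60.3 and 59.3 CPM under +N split and 75.9, 69.5 and 58 CPM under +N. The C2 domain gene had coefficients of variation of 8.79% or less in both deprived groups. OL01T001503, described as a resistance protein, a name used for intracellular immune receptors, had means of 7.97 ± 1.09 CPM under −N split and 8.03 ± 0.339 CPM under −N, against 3.13 ± 1.02 CPM under +N split and 3.4 ± 0.287 CPM under +N (SD, n = 3 each).

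A transcription factor gene with a basic region leucine zipper, OL01T003084, had 24.8, 25.2 and 15.2 CPM under −N split and 17.4, 22.2 and 17.6 CPM under −N, against 7.57, 6.47 and 3.7 CPM under +N split and 9.16, 3.17 and 3.62 CPM under +N. The log2 fold change was 1.97 (standard error 0.37) with a supplied partner and 1.59 (standard error 0.36) with a deprived partner. In none of the lists either, OL01T002245, a class 3 lipase, and OL01T003437, with the TLC domain found in ceramide synthases, had deprived means 2.03 and 2.15 times their supplied means. OL02T002914, described in the tables by the words amino acid alone, had 29.6, 26 and 28.9 CPM under −N split and 27.3, 29 and 26.6 CPM under −N, against 17, 16.6 and 15.7 CPM under +N split and 16.7, 17.2 and 17.1 CPM under +N. Its separation of 1.51 was among the 3 smallest, and its coefficients of variation were 6.85%, 4.45%, 4.24% and 1.59% in −N split, −N, +N split and +N roots. The remaining described genes, OL05T000141 and OL05T000280, carry domains of unknown function, with ratios of 1.92 and 2.17.

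OL11T000243, OL07T001818, OL06T002323 and OL09T001182, without a description, took the most reads of the members together with OL01T001204. OL11T000243 had 719, 799 and 918 CPM under −N split and 892, 974 and 892 CPM under −N, against 398, 381 and 408 CPM under +N split and 433, 401 and 402 CPM under +N. OL07T001818 had 387, 364 and 358 CPM under −N split and 358, 445 and 428 CPM under −N, against 183, 149.7 and 168 CPM under +N split and 202, 174 and 165 CPM under +N. In both genes the −N mean was above the −N split mean, by a −N split over −N ratio of 0.883 and 0.902. OL06T002323 had 199.6, 199 and 131 CPM under −N split and 213, 188 and 160.2 CPM under −N, against 43, 57.9 and 38 CPM under +N split and 73, 36.1 and 46.1 CPM under +N. OL09T001182 had 175, 152 and 111 CPM under −N split and 144, 177 and 152 CPM under −N, against 66.1, 40.9 and 29.4 CPM under +N split and 63.7, 33.3 and 38.2 CPM under +N. In both genes −N split replicate 3 was the lowest deprived library, and the first replicate was the highest of each supplied group in OL09T001182.

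Of the remaining undescribed members, named after their values were seen, OL11T000364 and OL06T000238 had deprived means 2.95 and 2.94 times their supplied means, and OL08T001456 and OL09T000474 1.81 and 1.82 times. OL08T001456 had 7.08, 7.16 and 7.34 CPM under −N split and 8.09, 7.11 and 6.76 CPM under −N, against 4.13, 4.1 and 3.54 CPM under +N split and 4.15, 4.12 and 3.95 CPM under +N. Its supplied libraries lay within 1 CPM of each other. OL11T001352 had the lowest +N split over +N ratio of the 46 genes, 0.875, and OL07T000279 the highest −N split over −N ratio, 1.149.

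**Figure D3:**
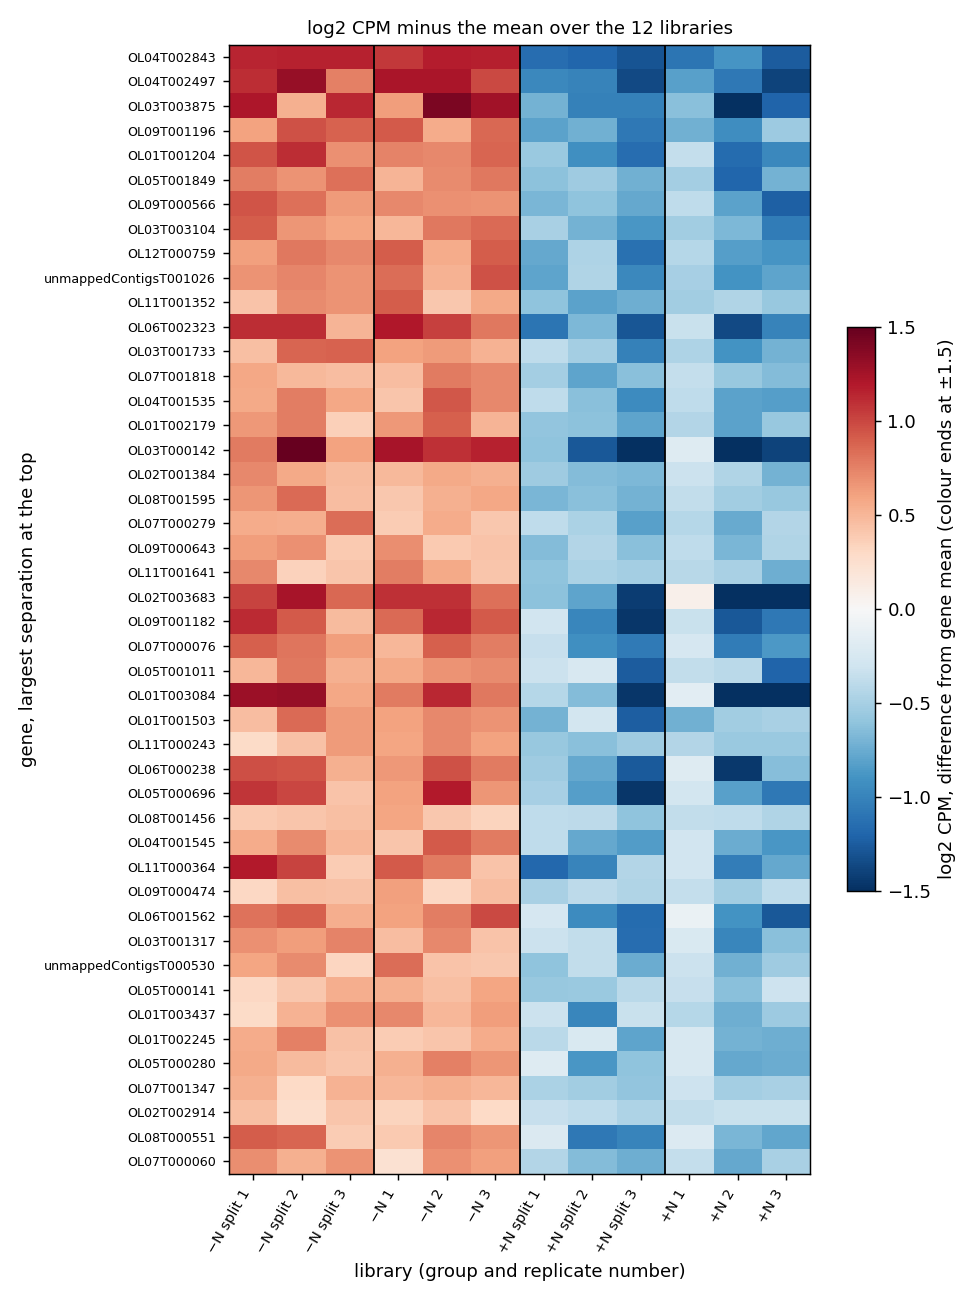
log2 CPM of the 46 genes (rows, largest separation at the top) in the 12 libraries (columns, by group and replicate number), as the difference from each gene's mean over all libraries; colours end at ±1.5. The 6 deprived libraries on the left are above the mean (red) and the supplied libraries on the right below it (blue) in nearly every cell, and the palest blue cells are mostly those of +N replicate 1.

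The fit of edgeR to all 25005 tested genes gave the size of the response in each partner state. Over the 46 genes the log2 fold change was 0.66 to 2.15 with a median of 1.2 in −N split compared to +N roots, where the partner was supplied, and 0.64 to 2.24 with a median of 1.24 in −N compared to +N split roots, where it was deprived. Over all tested genes the medians were −0.0041 and 0.010. All 46 genes were past an adjusted p of 0.05 (quasi-likelihood test of edgeR, adjusted after Benjamini and Hochberg), as were, in the higher direction, 11% of all tested genes with a supplied partner and 12.2% with a deprived partner. In −N compared to +N roots all 46 were past it as well, beside 8.84% of all tested genes. In the lower direction the shares of all tested genes were 12.2%, 12% and 10.3%, and no member can be there by the rule. The rule used these contrasts, so the counts of members follow from it. Without TMM scaling (edgeR's trimmed mean of M-values, used in the fit), the median ratio of all genes was 0.069 on the log2 scale in −N split over +N and 0.12 in −N over +N split roots, and the values in CPM include that shift.

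The intervals around the partner ratios were wide. In CPM the −N split over −N ratio of the members was 0.883 to 1.149 and the +N split over +N ratio 0.875 to 1.14. The fitted ratios after TMM scaling were 0.871 to 1.13 for −N split over −N and 0.909 to 1.19 for +N split over +N. The highest of the latter lies beyond the limit of 15%. The −N split mean was above the −N mean in 22 of the 46 genes in CPM and in 19 after TMM scaling. The +N split mean was above the +N mean in 14 genes in CPM and in 22 after TMM scaling. The 95% interval of the fitted ratio reached beyond the limits of 15% in 44 of the 46 genes for −N split over −N and in 45 for +N split over +N. It reached beyond a factor of 1.5 in 8 and 12 of these genes, and beyond a factor of 2 in 0 and 1. The lowest bound was 0.557 and the highest 1.89 in deprived roots, against 0.523 and 2.01 in supplied roots. The upper bound was a median of 1.62 times the lower bound in deprived roots and 1.64 times in supplied roots. None of the 46 genes was called for either ratio or for the difference of the deprivation response between the partner states (edgeR). The rule chose ratios near 1 on these same libraries, so the intervals and this count restate it and nothing is read from them against the other genes. Of all tested genes, 0.68% were called higher and 0.104% lower under +N split relative to +N, and 3063 had an unadjusted p under 0.05. Under −N split relative to −N, 1.27% were called higher and 2.74% lower, with 4384 at an unadjusted p under 0.05. For the difference these were 0.012% and 0.052%, with 2304.

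**Figure D4:**
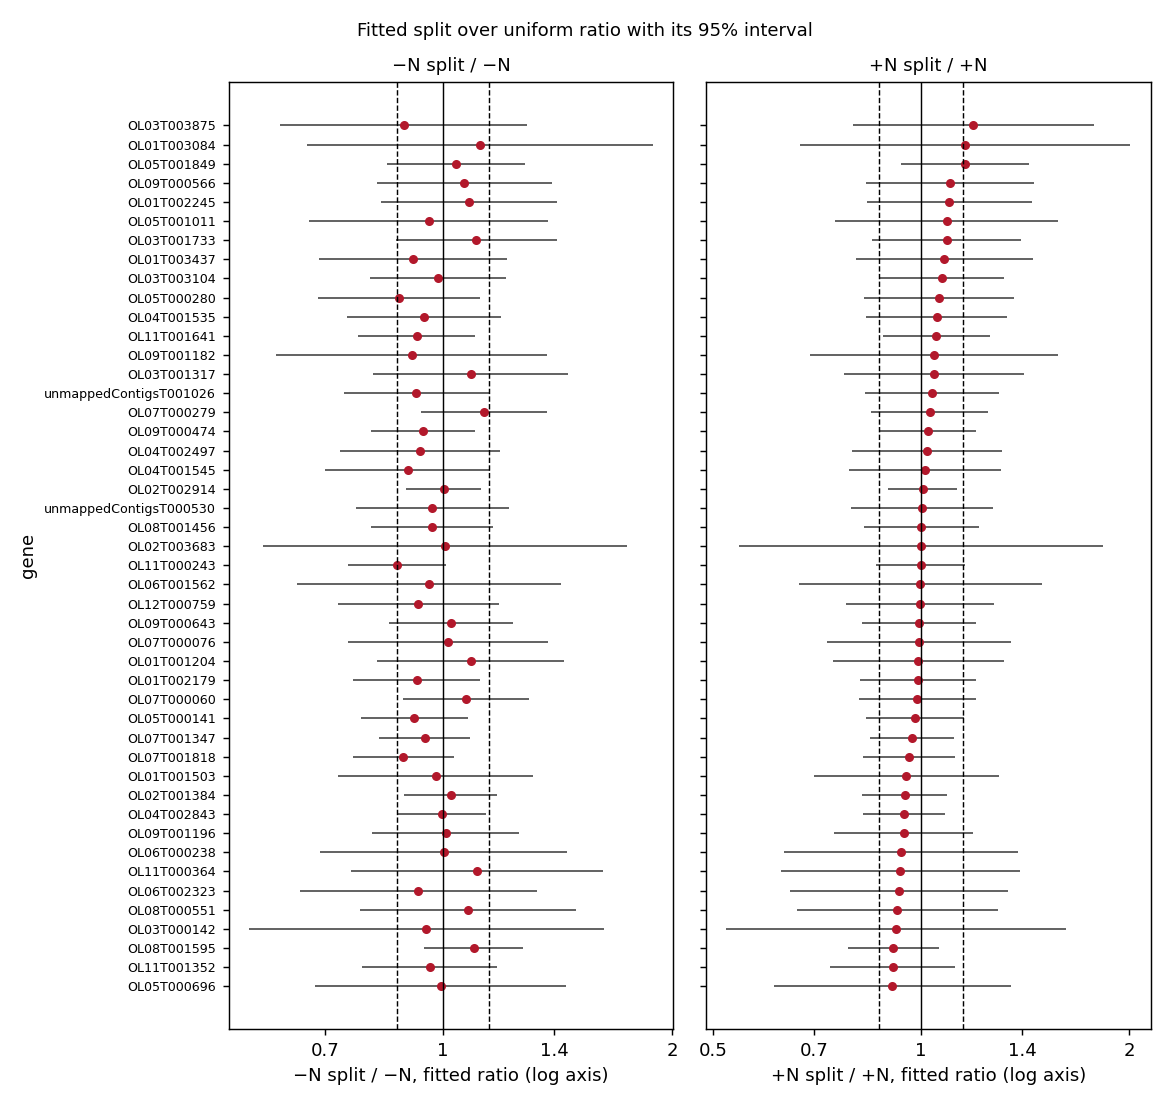
Fitted split over uniform ratio (points, log axes) with its 95% interval (lines) for each of the 46 genes, in deprived roots (left, −N split over −N) and supplied roots (right, +N split over +N). Dashed lines mark the limits of 15%. The points lie near 1 because the rule chose ratios near 1 in CPM without TMM scaling. After scaling, the points of OL03T003875, OL01T003084 and OL05T001849 lie beyond the upper dashed line on the right. Of the intervals, 44 (left) and 45 (right) cross a dashed line.

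Replicate 1 of the supplied groups stood out within these genes. +N replicate 1 was the highest of the +N libraries in 40 of the 46 genes, whereas it was the highest in 35.8% of 24666 genes with reads in every library. +N split replicate 1 was the highest of its group in 29 of the 46 and in 39.4% of all genes. Both held at once in 26 of the 46 (56.5%) and in 18.7% of all genes. The median deviation of the members from the group mean of log2 CPM was 0.25 in +N replicate 1, −0.15 in +N replicate 2 and −0.091 in +N replicate 3, and it was 0.12, 0.050 and −0.18 in +N split replicates 1, 2 and 3. Over all genes these medians lay between −0.043 and 0.035 in the 12 libraries. In 31 of the 46 genes +N replicate 1 was the supplied library that set the separation, and −N split replicate 3 was the lowest deprived library in 17. Among the 96 separated genes outside the limits, +N replicate 1 was the highest +N library in 69 (71.9%). In the 50 genes chosen by the rule with supplied and deprived roots exchanged, it was the lowest +N library in 21 (42%), beside 32.3% of all genes. Without +N replicate 1 the rule found 102 genes, which hold 32 of the 46. The part of this library in the differences was not tested.

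**Figure D5:**
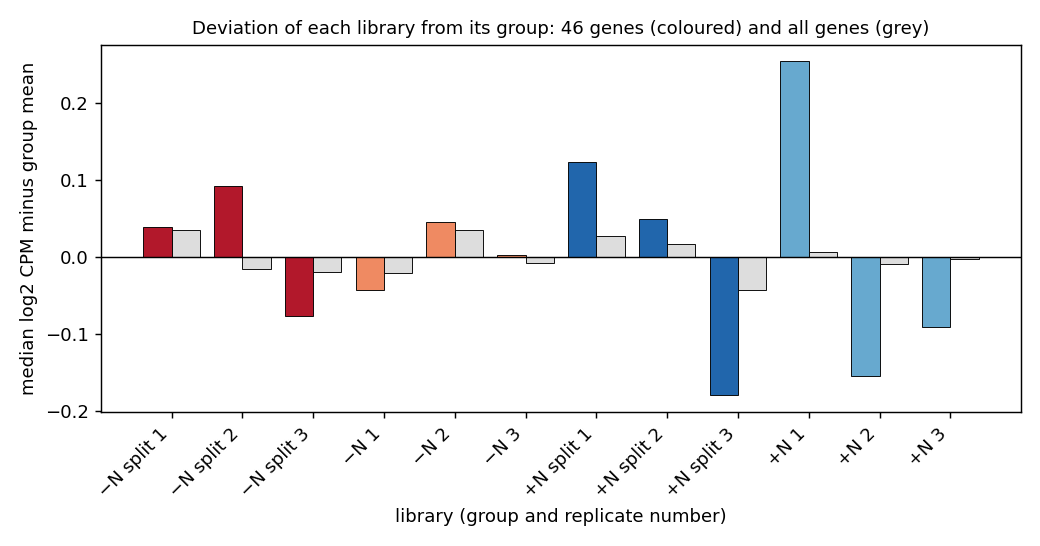
Median over the 46 genes (coloured bars) and over all genes with reads in every library (grey bars) of log2 CPM minus the group mean (y axis), for the 12 libraries (x axis, group and replicate number). +N replicate 1 has the largest bar of the members, at 0.25, and +N split replicate 3 the lowest, at −0.18, while all grey bars lie between −0.043 and 0.035.

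The coefficient of variation within a group had a median over the 46 genes of 11.9% in −N split, 10.6% in −N, 16.3% in +N split and 17.9% in +N roots. The highest were 43.5%, 26.5%, 41.4% and 76.2%, in OL03T000142, OL03T003875, OL09T001182 and OL02T003683. The rule keeps genes whose groups stay apart, so these values describe the members alone.

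The members lay on all numbered chromosomes but chromosome 10. Chromosome 1 held 6, chromosomes 3, 5, 7 and 9 held 5 each, and 2 were on unmapped contigs. Chromosome 10 holds 1489 of the gene models (5.08%) and chromosome 1 holds 3978 (13.6%).

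The thresholds cut through a continuous range of genes. The smallest separations inside were 1.502 in OL07T000060, 1.51 in OL08T000551 and 1.51 in OL02T002914, and the nearest genes outside were OL10T001282, OL07T000777 and OL02T000130 with 1.49, 1.48 and 1.47. Below the minimum level, OL01T001602, unmappedContigsT001734 and OL09T000500 had lowest deprived values of 4.33, 3.58 and 3.54 CPM, whereas the lowest such value inside was 5.89 CPM in OL01T002245. The basic helix-loop-helix gene OL03T000501, the SANT domain gene OL03T000082 and the GDSL lipase gene OL02T002571 were outside only by their +N split over +N ratios of 0.869, 0.862 and 0.859. After TMM scaling their log2 ratios of −0.15, −0.16 and −0.16 were inside the limits. Scaling also moved members the other way. The fitted log2 ratios of OL03T003875, OL01T003084 and OL05T001849 under +N split relative to +N were 0.25, 0.21 and 0.21, beyond the upper limit of 15%.

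OL02T003003, described as glutamine synthetase, had 1414, 1662 and 1461 CPM under −N split and 1415, 1335 and 1390.0 CPM under −N, against 709, 617 and 573 CPM under +N split and 772, 635 and 804 CPM under +N. Its separation was 1.66. Its −N split over −N ratio was 1.1 and its +N split over +N ratio 0.859, below the lower limit in CPM. After TMM scaling the log2 ratio of OL02T003003 was −0.17 under +N split relative to +N and 0.11 under −N split relative to −N, both inside the limits. The other described glutamine synthetase genes, named after their values were seen, were lower in deprived roots. OL03T000840 had 130.5 ± 33.7 CPM under −N split and 129 ± 7.33 CPM under −N, against 1619 ± 95.6 CPM under +N split and 1063 ± 122 CPM under +N (SD, n = 3 each), and OL03T000841 had 48.2 ± 15.5 CPM under −N split and 44.5 ± 2.21 CPM under −N, against 704 ± 60.1 CPM under +N split and 450.3 ± 73.7 CPM under +N (SD, n = 3 each).

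Other genes with related descriptions were counted beside the members, as rising or falling where edgeR's adjusted p was under 0.05. The descriptions come from tables of genes that were called on these same libraries, those of the genes higher in −N roots stop on chromosome 5, and the direction of such a list is not independent of the libraries. Over all tested genes 11% rose and 12.2% fell with a supplied partner, and 12.2% rose and 12% fell with a deprived one, with median log2 fold changes of −0.0041 and 0.010. The cell wall list held 94 tested genes besides the 3 peroxidases. In −N split compared to +N roots 28 of the 94 rose and 27 fell, with a median log2 fold change of 0.055, and in −N compared to +N split roots 40 rose and 20 fell, with a median of 0.45. OL03T001318, a multicopper oxidase gene next in number to the member OL03T001317, had 28.1 ± 2.51 CPM under −N split and 20.5 ± 3.59 CPM under −N, against 10.1 ± 1.07 CPM under +N split and 11.1 ± 0.535 CPM under +N (SD, n = 3 each). Its log2 fold change was 1.27 (standard error 0.14, adjusted p = 6.9e-05) with a supplied partner and 0.92 (standard error 0.14, adjusted p = 0.0005) with a deprived one (edgeR, Benjamini-Hochberg adjustment). The peroxidase genes OL01T001041 and OL03T000913 rose, with log2 fold changes of 2.39 and 2.08 with a supplied partner and 1.81 and 3.41 with a deprived one. OL03T003760, a cellulose synthase catalytic subunit, rose by 0.5 and 0.74 on the log2 scale. In the opposite direction, the pectinesterase genes OL05T001154, OL01T001275 and OL07T002015, whose products alter wall pectin, had log2 fold changes of −1.75, −1.47 and −1.08 with a supplied partner and −1.26, −2.18 and −1.53 with a deprived one. The peroxidase gene OL01T001332 also fell, with log2 fold changes of −1.04 and −0.75.

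In the kinase list, of 147 tested genes besides the 2 members, 33 rose and 78 fell with a supplied partner and 41 rose and 65 fell with a deprived one, with medians of −0.48 and −0.44. OL04T002897, described as a protein tyrosine kinase, had 24.1 ± 3.45 CPM under −N split and 21.7 ± 3.65 CPM under −N, against 7.44 ± 0.593 CPM under +N split and 9.06 ± 0.478 CPM under +N (SD, n = 3 each). OL09T001810, described as the serine/threonine-protein kinase CDL1, had 2.58 ± 0.524 CPM under −N split and 3.34 ± 0.658 CPM under −N, against 36.7 ± 7.16 CPM under +N split and 35.3 ± 6.8 CPM under +N (SD, n = 3 each), the reverse order. The receptor-like kinase gene OL01T003386 and the kinase gene OL05T001609 rose on the log2 scale by 1.21 and 0.68 with a supplied partner and 0.75 and 1.02 with a deprived one. OL07T001872 fell in both, with log2 fold changes of −1.84 and −2.15.

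The nitrogen recycling list was found by words such as protease, peptidase, subtilase, amidohydrolase, autophagy, xanthine and urease. It held 58 tested genes besides OL04T002843. With a supplied partner 14 rose and 39 fell, and with a deprived one 11 rose and 27 fell, with medians of −0.57 and −0.33. The neighbouring subtilase genes OL02T000697 and OL02T000698, which code for serine proteases, rose on the log2 scale by 2.51 and 2.28 with a supplied partner and 1.86 and 0.97 with a deprived one. They were outside the 46 genes. OL02T000697 had 118 ± 16.6 CPM under −N split and 78 ± 7.69 CPM under −N, against 20.1 ± 3.85 CPM under +N split and 19.6 ± 7.91 CPM under +N (SD, n = 3 each), so that its −N split and −N means differ by more than the limit. The aspartyl protease gene OL02T002904 rose by 0.54 with a supplied partner and 1.08 with a deprived one. Another aspartyl protease gene, OL02T001476, the C26 peptidase gene OL03T002696 and the carboxypeptidase gene OL03T001813 fell, with log2 fold changes of −1.53, −1.75 and −1.27 with a supplied partner and −1.75, −2.29 and −2.64 with a deprived one.

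The lists without members were counted against the same shares of all tested genes. Of 53 cytoskeleton and cell division genes, found by words such as tubulin, kinesin and cyclin, 43 rose and 1 fell with a supplied partner and 50 rose and 1 fell with a deprived one, with medians of 0.63 and 0.77, and 52 of the 53 came from the table of genes higher in −N roots. Of 30 nitrogen assimilation genes 1 rose and 22 fell with a supplied partner and 4 rose and 21 fell with a deprived one. Of 30 nitrogen transport genes 6 rose and 13 fell with a supplied partner and 8 rose and 15 fell with a deprived one. Of 118 transcription factor genes the counts were 15 and 65, then 18 and 71 in the same order. Of 79 redox genes, found by words such as glutaredoxin, thioredoxin, glutathione S-transferase and cytochrome P450, they were 10 and 44, then 10 and 35. Of the 34 green tissue genes 14 fell with a supplied partner and 2 with a deprived one. The falling lists came mostly from tables of genes called lower in deprived roots. These tables held 25 of the 30 nitrogen assimilation, 20 of the 30 nitrogen transport and 91 of the 118 transcription factor genes. They also held 61 of the 79 redox and all 34 green tissue genes, 94 of 149 kinase and 41 of 59 nitrogen recycling genes. The falls, like the cytoskeleton rise, are thus not independent of the libraries.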

How the data were processed

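Root mRNA libraries (TruSeq) were processed by the authors with bcl2fastq, HISAT2 and featureCounts, per the submitters' processing notes, mapped to the *O. longistaminata* genome, into deposited raw counts per gene model. The sources used here give no versions, strand setting or read pair handling. The deposited log2 CPM values equalled the log2 CPM of their own count column (prior count 2, unscaled by TMM) in all 12 libraries, and were not used further. CPM was each count over its library total. Log2 fold changes, standard errors, intervals and adjusted p-values came from edgeR 4.0.16 (R 4.3.3, limma 3.58.1; TMM, filterByExpr with a minimum count of 10, quasi-likelihood test over all 12 libraries, Benjamini-Hochberg adjustment over 25005 genes, 8 residual degrees of freedom). The script was tested on simulated data. The alternatives were DESeq2 1.42.0, other scalings, thresholds and filters, a replicate block and leaving out each library.

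The members and lists were chosen with earlier results of these data known. The members named were the 10 with the largest separation, the 5 with the most reads, the 3 with the smallest separation and those in a description list. The others named were the nearest genes outside each threshold and, in lists holding a member, the 2 with the smallest p in each direction. Intervals cover only the spread between libraries. Totals of 39071838 to 56252511 reads put at least 78 reads behind each member's value.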

Additional observations from a re-analysis of the deposited data

How the results depend on the processing

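The number of genes that met the rule depended on its thresholds. It was 201 with the lowest deprived library at least 25% above the highest supplied one and 7 with it at least 2 times as high, 101 with partner limits of 30%, 10 with limits of 5% and 141 with no limits on the partner ratios, against 46. The 141 leave out OL02T003003. A minimum of 1 CPM gave 51 genes and one of 10 CPM 39. TMM scaling gave 41 genes, 34 of them among the 46, and DESeq2 size factors 39, with 30 among the 46. Leaving out each library in turn gave 39 to 102 genes. Without +N replicate 1 there were 102, which hold 32 of the 46, and without −N replicate 1, whose labels conflict, there were 63, which hold 41. Without replicate 1 of both supplied groups, an alternative chosen after seeing the data, there were 139, which hold 36.

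All 46 members stayed past an adjusted p of 0.05 in the 3 deprivation comparisons when any 1 library was left out (edgeR), and the 704 values of named members under the alternatives kept their direction and side of the threshold. Both follow from the rule, which chose genes with a gap between all deprived and all supplied libraries, and say nothing of stability. Over all genes, leaving out each library gave 1795 to 2918 genes higher and 2107 to 3067 lower under −N split relative to +N, 1995 to 3131 higher and 2235 to 3094 lower in −N compared to +N split roots, and 1476 to 2243 higher and 1842 to 2563 lower in −N compared to +N roots. It gave 6 to 179 higher and 0 to 39 lower under +N split relative to +N, 97 to 356 higher and 370 to 718 lower under −N split relative to −N, and 1 to 9 higher and 6 to 50 lower for the difference between the partner states. The 0 was without +N split replicate 3 (edgeR), the 97 and 370 without −N replicate 1. DESeq2's Wald test called 546 higher and 210 lower under +N split relative to +N, 663 and 1194 under −N split relative to −N, and 124 and 201 for the difference. These counts were 170 and 26, 317 and 684, and 3 and 13 in edgeR.

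The labels do not say that a replicate number marks shared material, and same-numbered libraries were not treated as pairs, since only 6 of 18 correlations of their deviations, which were −0.16 to 0.23, were over 0.1. As a hint from the data that numbers mark shared material, 8 of 12 libraries correlated best with their own number. +N split and +N libraries 1, 2 and 3 come from different ramet pairs and had correlations of 0.19, 0.070 and 0.18. Between −N split and +N split, the groups that can share a ramet pair, libraries 1, 2 and 3 had correlations of −0.13, 0.10 and 0.079. With the number as a replicate block, 13 genes were lower under +N split relative to +N and 1 gene was higher for the difference. The cause of these changes was not tested.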
